A study of Sus scrofa with 19 samples.

Results

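The mitochondrial ribosomal protein genes were followed through 19 libraries labelled as LV myocardium, each from 1 pig (Sus scrofa, female large whites). They were taken as every gene whose symbol in the authors' table begins with MRPL or MRPS and a digit, and were read from the count files by Ensembl identifier. This gave 73 genes of the 14744 in that table and of the 25879 in the count files. Of these, 46 carry an MRPL symbol (large subunit) and 27 an MRPS symbol (small subunit), and all 73 passed the filter on low counts, as did 13552 genes in all.

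The DOX group (n = 5) received doxorubicin and the MYO group (n = 5) Myocet, its liposomal citrate complex, at 60 mg/m2 in each of 3 cycles, with anterior LV wall taken at 3 months because the animals were in poor health. The RemoLV group (n = 3) had a balloon occlusion of the left anterior descending coronary artery for 90 min with reperfusion, and its tissue came from the posterior, remote wall at 6 months. The Hyper group (n = 3) had a stent-made stenosis of the aortic isthmus and the Control group (n = 3) neither drug nor lesion (sham-operated according to the sample descriptions, untreated according to the methods), both with anterior wall taken at 6 months. Library totals lay between 9527710 and 20370209 counts. Drug, length of follow-up and series of animals cannot be told apart in DOX and MYO, nor lesion and sampled wall in RemoLV.

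The libraries carry 2 sets of names. Groups were taken from the sample titles, called file labels here. In the authors' expression table, each column ranks its genes exactly as 1 count file does, and 8 of the 19 columns bear another group's name than that file, called the table name here. The table's Control columns hold the libraries with the file label RemoLV, its RemoLV columns those with the file label Control, and 1 library of DOX has changed places with 1 of MYO. The libraries labelled RemoLV also went against that label in their markers: MYL2, the ventricular myosin light chain, had a mean of 58 ± 50.8 CPM (counts per 1000000 counts of the scaled library; SD, n = 3) there and 15850 ± 2250 CPM (SD, n = 3) in Control, while the summed atrial markers reached 9543 to 12804 CPM against 125 to 174 CPM, with 1143 to 2444 in DOX, 780 to 1275 in MYO and 214 to 1278 in Hyper. The summed ventricular markers were 25022 to 29133 CPM there and 44968 to 74544 CPM in the other 4 groups, and the atrial markers go against the table name Control of these libraries as they do against the file label. Values are by file label unless the table name is given, the counts against Control are given for both namings, and DOX and MYO were also set against Hyper, a comparison in which the namings exchange no library between the sides.

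Mitochondria keep their own ribosomes, which translate the few messages of mitochondrial DNA, all of them encoding subunits of the respiratory chain and of ATP synthase. The ribosomal RNAs are mitochondrial, whereas every protein of the ribosome is encoded in the nucleus, made in the cytosol and imported. The heart depends on this system for its oxidative capacity, and inherited defects of several of these genes cause cardiomyopathy. Symbols do not always follow position: the products of MRPS18A and MRPS30 are now placed in the large subunit, and that of MRPS36 is now regarded as part of the alpha-ketoglutarate dehydrogenase complex. MRPL58 encodes a peptidyl-tRNA hydrolase that became part of the large subunit.

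The genes lie on many chromosomes, and the bases before their starts are one of the places at which a common input could be read, which was not tested. The 250 bases upstream of the annotated gene start are shown for 6 members in RefSeq on Sscrofa11.1, written 5′ to 3′ on the gene's strand. MRPL42 and MRPL33 had the largest decreases in the comparison of the libraries labelled RemoLV with Control among members with windows free of annotated exons. MRPL12 and MRPL38 were higher in DOX and MYO by both namings, and MRPL17 and MRPL52 show the motif matches. Capitals mark matches to CGCATGCG (NRF1), CCGGAAG (the ETS core bound by GABPA) and AAGATGGC (YY1) on either strand.
MRPL42 (chr5:89661776-89662025, minus strand): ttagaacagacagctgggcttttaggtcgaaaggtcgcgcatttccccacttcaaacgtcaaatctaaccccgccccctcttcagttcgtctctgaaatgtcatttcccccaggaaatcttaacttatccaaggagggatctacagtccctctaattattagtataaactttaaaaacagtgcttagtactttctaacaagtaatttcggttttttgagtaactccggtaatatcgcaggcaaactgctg
MRPL33 (chr3:111438736-111438985, minus strand): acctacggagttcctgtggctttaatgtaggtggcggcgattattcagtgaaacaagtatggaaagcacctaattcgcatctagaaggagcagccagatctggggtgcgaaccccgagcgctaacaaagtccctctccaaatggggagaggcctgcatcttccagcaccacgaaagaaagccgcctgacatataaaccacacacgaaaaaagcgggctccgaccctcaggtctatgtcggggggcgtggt
MRPL12 (chr12:1203818-1204067, minus strand): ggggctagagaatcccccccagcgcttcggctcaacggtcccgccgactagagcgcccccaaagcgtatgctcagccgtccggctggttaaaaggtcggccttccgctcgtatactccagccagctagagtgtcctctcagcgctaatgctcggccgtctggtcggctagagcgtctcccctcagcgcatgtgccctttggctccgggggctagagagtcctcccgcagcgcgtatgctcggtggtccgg
MRPL38 (chr12:5514170-5514419, plus strand): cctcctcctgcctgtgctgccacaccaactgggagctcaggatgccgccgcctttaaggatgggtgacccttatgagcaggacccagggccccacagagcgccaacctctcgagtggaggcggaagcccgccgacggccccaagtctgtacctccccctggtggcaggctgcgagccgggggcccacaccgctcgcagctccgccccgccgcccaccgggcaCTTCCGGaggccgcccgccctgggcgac
MRPL17 (chr9:3075736-3075985, plus strand): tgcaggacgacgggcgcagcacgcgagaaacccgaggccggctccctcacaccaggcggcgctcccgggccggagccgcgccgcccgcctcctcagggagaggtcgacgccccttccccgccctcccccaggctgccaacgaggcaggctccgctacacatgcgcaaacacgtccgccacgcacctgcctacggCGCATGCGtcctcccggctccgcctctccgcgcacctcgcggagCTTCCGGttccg
MRPL52 (chr7:76191648-76191897, minus strand): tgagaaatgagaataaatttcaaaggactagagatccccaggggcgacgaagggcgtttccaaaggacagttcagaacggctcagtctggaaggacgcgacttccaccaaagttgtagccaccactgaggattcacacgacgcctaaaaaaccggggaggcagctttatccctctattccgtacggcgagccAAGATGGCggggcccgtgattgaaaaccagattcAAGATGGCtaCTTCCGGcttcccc

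All 73 members were matched to RefSeq by symbol, and 72 had such a window, the exception being MRPS12, which is annotated there as a non-coding gene. CGCATGCG was found in 4 of 72 windows (5.56%), those of MRPL10, MRPL17, MRPL35 and MRPS27, against 1.51% of the 19560 windows of all protein-coding genes. CCGGAAG was found in 12 windows (16.7%) against 7.77%, with 3 matches before MRPS34, and AAGATGGC in 4 (5.56%) against 1.49%. TGCGCA, the shorter NRF1 core, which can overlap the longer one, was found in 16.7% against 6.99%. CCAAT was as frequent in member windows (30.6%) as in all windows (31.9%). The windows of members had a median GC content of 59.6% and all windows one of 57.6%, and the matches are a description of these letters, not of binding.

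Neighbouring genes were counted without those that overlap a member, which 19 members had on the opposite strand. The share over all genes was not counted. Within 1000 bases, 20 members had another such gene starting on the opposite strand. They included MRPL35 with IMMT, the core gene of the mitochondrial contact site, MRPL47 with NDUFB5 of complex I, MRPS12 with SARS2, the mitochondrial seryl-tRNA synthetase, and MRPL51 with the condensin gene NCAPD2. Other neighbours included LRRC46, MTBP, LYPLA1, TCP1, GEMIN5, PSMA2 and ZNF189. A single pair joined both subunits: MRPS11 and MRPL46 start 38 bases apart on chromosome 1. The bases between them are shown on the plus strand, with a CCAAT box read on the minus strand in capitals.
MRPS11 to MRPL46 (chr1:191321952-191321989): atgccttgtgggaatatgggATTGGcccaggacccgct

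Levels of the members, summed within each library, fell into an order of the groups that does not depend on any test. The sum over 73 members was 2373, 2455 and 2192 CPM in RemoLV 1 to 3, the lowest of all libraries. It was 2783, 2786, 2845, 2810 and 2956 CPM in DOX and 3097, 3010, 3120, 2926 and 2916 CPM in MYO. It was 3644, 3522 and 3429 CPM in Hyper and 3759, 3271 and 3825 CPM in Control. DOX and MYO overlapped in their ranges, as did Hyper and Control, and neither the RemoLV libraries nor the DOX and MYO libraries overlapped with Hyper or Control. Both subunits followed this order, and the ratio of summed MRPL to summed MRPS levels had means between 1.58 ± 0.0758 (SD, n = 3) in Hyper and 1.69 ± 0.0437 (SD, n = 5) in DOX.

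**Figure D1:**
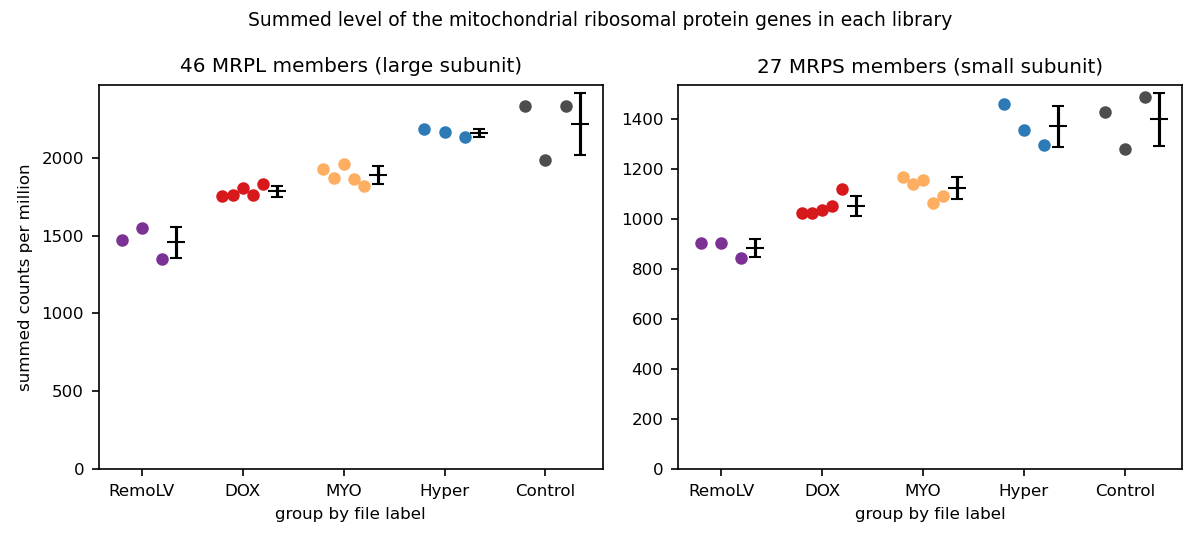
Summed CPM of the 46 MRPL members (left) and the 27 MRPS members (right) in each library (points), with mean and SD of each group by file label (black). RemoLV libraries lie lowest at 1348 to 1549 CPM for MRPL, DOX and MYO between, and Hyper and Control highest.

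The order was shared by most single members. The mean of RemoLV was the lowest of the 5 groups for 62 of the 73 members, and the highest mean was found in Control for 36, in Hyper for 28, in MYO for 7 and in DOX for 2. Per kilobase of the longest RefSeq mRNA, MRPL51 and MRPL33 stood first in Control, at 173 and 169 CPM per kb, and in RemoLV, at 68.7 and 66.5 CPM per kb. MRPL12 stood at rank 15 of the 72 members with a length in Control and at rank 3 in RemoLV. The ratio of the highest to the lowest group mean ranged from 1.13 for MRPL11 to 3.92 for MRPL57. Over all 19 libraries, which share groups, depth and scaling, the median Pearson correlation of a member with the other members was between -0.49 (MRPL57) and 0.77, with a median of 0.62. Within groups this median was 0.16.

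**Figure D2:**
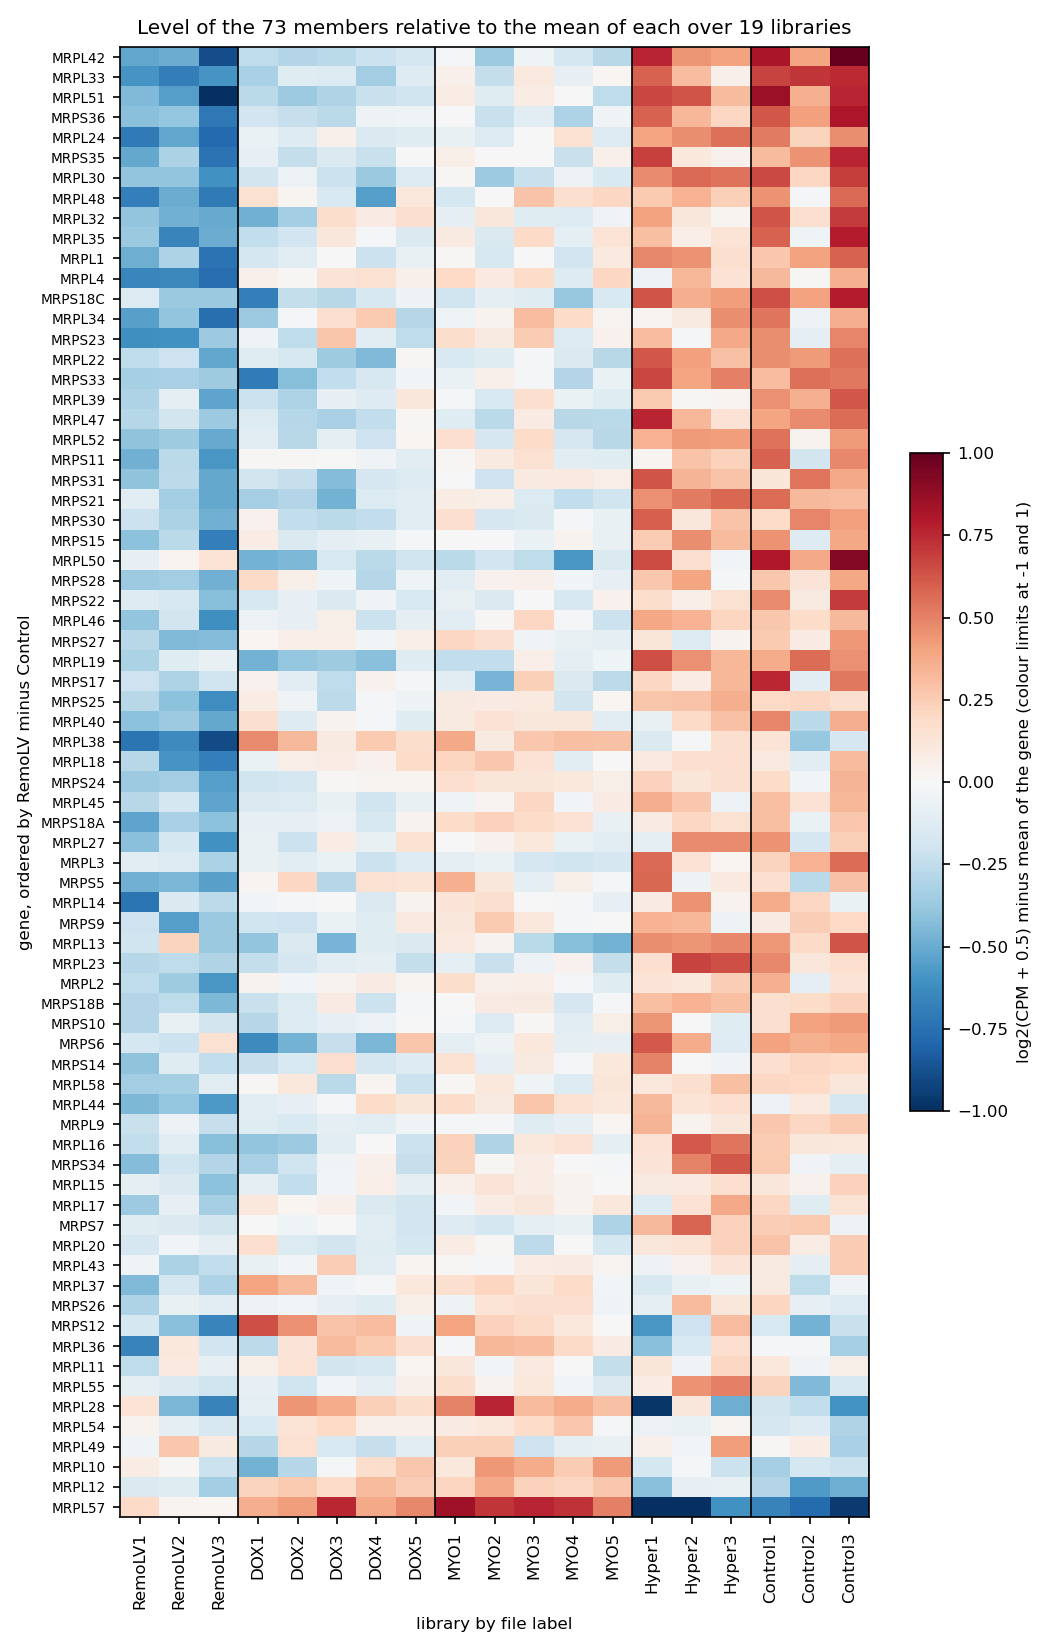
Log2(CPM + 0.5) of each of the 73 members (rows, ordered by the difference between RemoLV and Control) in each library (columns, by file label), minus the member's mean over the 19 libraries. Most rows run from blue in RemoLV to red in Hyper and Control, while at the bottom MRPL57 is higher in RemoLV than in Hyper and Control, and MRPL12 and MRPL10 have their lowest mean in Control.

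In DOX, 41 of 73 members were lower than in Control and 5 were higher at an adjusted p of at most 0.05 (edgeR quasi-likelihood test, Benjamini-Hochberg adjustment over 13552 genes). Among all tested genes, 21.1% were lower and 21% higher. The median log2 fold change of the members was -0.31, against 0.03 over all genes. Decreases included MRPL42, MRPL50, MRPL51 and MRPL33 of the large subunit and MRPS18C and MRPS33 of the small subunit. In the libraries of the 5 DOX pigs MRPL42 lay at 25.7, 25, 25.3, 26.3 and 27.1 CPM, and in Control at 54.4, 40.5 and 70 CPM. Every DOX library was below every Control library, and the log2 fold change was -1.08 ± 0.14 (SE; adjusted p = 2.1e-05). MRPL50 lay at 15.9 to 19.9 CPM (median 18.3) in DOX and at 39.1, 29 and 42.5 CPM in Control, again without overlap (log2 fold change -1.04 ± 0.15, SE). MRPL51 fell by 0.95 ± 0.13 (SE) on the log2 scale, from 153, 107 and 142 CPM in Control to between 65 and 72.8 CPM in DOX.

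The 5 members higher in DOX were MRPL12, MRPL38, MRPL54, MRPL57 and MRPS12. The product of MRPL12 forms the stalk that receives translation factors and is also known to bind the mitochondrial RNA polymerase. It lay at 91.6, 94.2, 89.4, 97.9 and 93.4 CPM in DOX and at 64.1, 53 and 56.1 CPM in Control, with a log2 fold change of 0.69 ± 0.10 (SE; adjusted p = 3.3e-05). MRPS12, whose product lies at the decoding centre, was between 20.2 and 32.8 CPM (median 25.8) in DOX and at 18.6, 14.8 and 17.7 CPM in Control (log2 fold change 0.64 ± 0.19, SE). MRPL38, of the central protuberance of the large subunit, rose by 0.39 ± 0.12 (SE; adjusted p = 0.013), a call that was lost without Control 2 (adjusted p = 0.077) or Control 3 (0.058), or with DOX and Control alone (0.052). Without Control 3, 3 members were higher in DOX. Same-numbered libraries of DOX and Control were correlated in their deviations from group means (0.117 to 0.242), though the sample titles state no pairing of pigs. With the replicate number as a block in a model of all 19 libraries, 4 members were higher and 31 lower in DOX. MRPL54 was the increase that was lost (adjusted p = 0.071). The 10 lost decreases were MRPL20, MRPL46, MRPL48, MRPS9, MRPS11, MRPS15, MRPS18B, MRPS24, MRPS25 and MRPS28, at adjusted p between 0.053 and 0.15.

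In MYO, 32 members were lower and 7 higher than in Control, where 21.7% of all genes were lower and 20.7% higher, and the median log2 fold change was -0.23 against 0.02 over all genes. Of the 32, 31 were also lower in DOX (28 with the replicate block in DOX), the exception being MRPS7. The members higher in MYO were the 5 of DOX together with MRPL10, which anchors the stalk, and MRPL28. MRPL10 lay at 27.6, 34.8, 33.4, 30.6 and 34.7 CPM in MYO and at 20.3, 22.6 and 22.1 CPM in Control, without overlap, and rose by 0.57 ± 0.15 (SE; adjusted p = 0.0048). MRPL28 was the least abundant member, at 1.86 to 2.77 CPM in MYO and 0.78 to 1.19 CPM in Control. It overlaps TMEM8A on the same strand, so that reads shared by both genes could be missing from its counts. MRPS12 rose by 0.48 ± 0.18 (SE; adjusted p = 0.044), which was lost without any 1 of MYO 1 to 4 or of the Control libraries, at adjusted p between 0.054 and 0.14, and also with RLE factors (0.056), with no filter (0.057) and without the libraries that the namings exchange (0.074). MRPL38 rose by 0.39 ± 0.12 (SE; adjusted p = 0.013), and its adjusted p was 0.076 without Control 2 and 0.057 without Control 3. Without Control 3, 3 members were higher.

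DOX and MYO are the same drug in free and liposome-encapsulated form, given at the same dose and sampled at the same time. No member differed between them (0 of 73 in either direction, as 0% of all genes in either). DESeq2 called 0 members as well, where it called 0.0104% of the genes that it gave an adjusted p. At an unadjusted p under 0.05 in edgeR 0 members were higher and 5 lower in DOX, as were 3.95% and 3.14% of all genes. The largest difference was that of MRPL10, with 18.3, 20.9, 25.4, 29.1 and 31 CPM in DOX and a log2 fold change of -0.37 ± 0.13 (SE; adjusted p = 0.69). For MRPL12 the difference was -0.02 ± 0.08 and for MRPL42 -0.07 ± 0.13 (SE). The median over members was -0.07, and 67 of the 73 fold changes were below 0 (54 by table name). The 31 shared decreases and 5 shared increases against Control rest on the same 3 Control libraries.

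In the libraries labelled RemoLV, 60 members were lower and 1 was higher than in Control, where 24% of all genes were lower and 23.1% higher. The median log2 fold change was -0.60, against 0.02 over all genes, and for 58 members every RemoLV library lay below every Control library, as for 25.7% of all genes. MRPL42 lay at 21.3, 21.6 and 16.4 CPM and fell by 1.47 ± 0.17 (SE; adjusted p = 2.6e-06) on the log2 scale. MRPL33, a small protein of the large subunit, lay at 38.1, 35.5 and 38 CPM in RemoLV and at 92.2, 94.8 and 96.8 CPM in Control (log2 fold change -1.35 ± 0.12, SE). MRPL51 lay at 61.6, 56.8 and 41.1 CPM (-1.33 ± 0.15, SE), and MRPL24 at 42.9, 48.8 and 40.7 CPM against 101, 81.8 and 97.1 CPM (-1.08 ± 0.11, SE). In all 4, every RemoLV library lay below every Control library. MRPS36 fell from 157, 135 and 178 CPM to 76.1, 77.7 and 61.9 CPM (-1.12 ± 0.13, SE). All 27 MRPS members had a log2 fold change below 0, and 24 of them were lower. Unlike in DOX and MYO, MRPL38 fell, to 37.3, 39.7 and 33.2 CPM (-0.63 ± 0.13, SE; adjusted p = 0.00083). The sole increase was that of MRPL57, and 2 members were higher without RemoLV 3 or without Control 1.

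The RemoLV libraries differed from Control also in markers of cell types. Summed fibroblast markers reached 10715 to 12383 CPM in RemoLV, 4798 to 7131 in DOX, 4600 to 6692 in MYO, 1563 to 3923 in Hyper and 2076 to 3479 in Control, an order close to the reverse of that of the members. Single markers did not all follow the sum: of 7, 3 were higher and 0 lower in DOX than in Control, 3 and 1 in MYO and 5 and 0 in RemoLV. Summed markers of all cardiomyocytes were 16707 to 17274 CPM in RemoLV, 20559 to 24592 in DOX, 21909 to 25925 in MYO, 25140 to 27287 in Hyper and 22777 to 31747 in Control. Of these 6 markers, 4 were lower and 1 higher in DOX than in Control, 3 and 1 in MYO and 5 and 0 in RemoLV, with median log2 fold changes of -0.56, -0.46 and -0.91. Of 5 macrophage and leucocyte markers, 3 were higher and 1 lower in DOX, 1 and 1 in MYO and 2 and 2 in RemoLV. The 2 tested erythroid markers were lower in DOX and RemoLV (medians -2.36 and -3.15), and 0 were called in MYO (median -1.66). With 7 fibroblast, 5 atrial and 6 cardiomyocyte markers found, none was at 0 in all libraries. The part of these markers' cells in the members' differences was not tested. In bulk tissue, fewer cells of a type and less RNA per cell cannot be told apart.

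Hyper and Control could not be separated by any member (0 higher and 0 lower of 73, as 0% of all genes in either direction). DESeq2 called 0 members as well, where it called 2.66% of the genes that it gave an adjusted p. At an unadjusted p under 0.05 in edgeR 4 members were higher and 5 lower, where 8.29% and 9.55% of all genes were. The median log2 fold change was -0.01, against 0.01 over all genes. The fold changes ranged from -0.43 for MRPL50, at 35.2, 25 and 21.9 CPM in Hyper, to 0.47 for MRPL55. Without Hyper 1, 3 members were higher and 3 lower, and 5.6% of all genes tested were called in either direction. Without Control 2, 7 members were lower, and 18.4% of all genes were called. With Hyper in place of Control, RemoLV gave 56 lower members and 1 higher, where 18.6% of all genes were lower and 17% higher, with a median of -0.63. Of the 60 members lower in RemoLV than in Control, 55 were also lower than in Hyper. MRPL51, at 133, 130 and 104 CPM in Hyper, was lower in RemoLV by 1.20 ± 0.15 (SE) on the log2 scale.

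**Figure D3:**
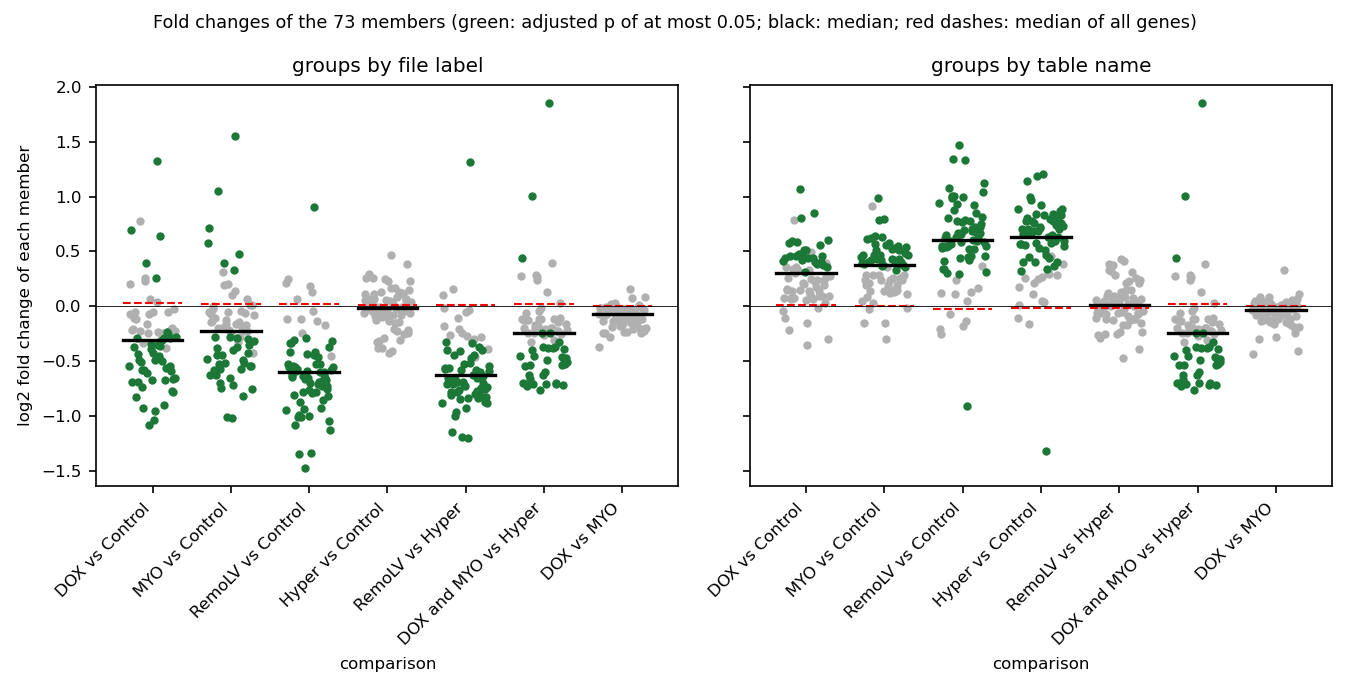
Log2 fold change of each of the 73 members (points; green at an adjusted p of at most 0.05) in 7 comparisons, with groups by file label (left) and by table name (right), the median of the members (black) and of all genes (red dashes). The medians lie below 0 in the left panel and above 0 in the right one for DOX, MYO and RemoLV against Control, whereas DOX and MYO against Hyper shows a median of -0.24 in both panels.

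By table name the members' direction turned in DOX, MYO and RemoLV against Control, and Hyper, with no member called by file label, gained increases. In DOX 28 members were higher and 0 lower, where 15% of all genes were higher and 14.6% lower. In MYO 38 were higher and 0 lower, where 14.8% and 14.4% of all genes were. The medians were 0.31 and 0.38. The table-named RemoLV group, which holds the libraries labelled Control, had 60 higher members and 1 lower (24% and 23.2% of all genes), and the Hyper group 56 and 1 (18.7% and 17.2%). No member differed between the table-named RemoLV and Hyper groups (0% of all genes in either direction). Among members lower by file label, 14 (DOX), 12 (MYO) and 59 (RemoLV) were higher by table name, MRPL51 and MRPL33 in all of them, as were 2.55%, 2.48% and 23.7% of all genes. In RemoLV the namings exchange the sides of the comparison, so that calls there had to turn. With the libraries labelled RemoLV as the reference, MRPL51 rose by 0.44 ± 0.15 (SE) in DOX. The same order of libraries thus gave either a decrease or an increase, depending on which end was named Control.

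Against Control, few calls in DOX and MYO were the same by both namings. MRPL12, MRPL38 and MRPS12 were higher in DOX by both, and MRPL10, MRPL12, MRPL38, MRPL57 and MRPS12 were higher in MYO by both, where 4.33% (DOX) and 4.31% (MYO) of all genes were. These shares of the members, 4.11% and 6.85%, are near those of all genes. No member was lower in DOX or MYO by both, and 3.48% and 3.68% of all genes were. By table name MRPL12 rose by 0.44 ± 0.09 (SE) in DOX and by 0.47 ± 0.09 (SE) in MYO, and MRPL38 by 1.07 ± 0.12 and 0.99 ± 0.12 (SE). MRPL12 in DOX and MYO, at 89.4 to 102 CPM, thus lay above every library of the other 3 groups, which reached 74.5 CPM. MRPL38 in DOX and MYO lay at 66.1 to 86.4 CPM, above all RemoLV libraries, and overlapped with Hyper (56.1, 61.3 and 69.6 CPM) and Control (68.4, 47.6 and 55.2 CPM).

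DOX and MYO together differed from Hyper in 32 lower and 3 higher members, the same by both namings, where 16.9% of all genes were lower and 15.8% higher (16.9% and 15.8% by table name). The median log2 fold change was -0.24 against 0.03 over all genes. The largest decrease was that of MRPL42, which lay at 52.5, 42 and 40.8 CPM in Hyper and between 23.8 and 30.3 CPM in DOX and MYO (-0.76 ± 0.13, SE; adjusted p = 0.0002). MRPL19 lay at 41.7, 36.7 and 33.5 CPM in Hyper and at 19 to 27.9 CPM in DOX and MYO (-0.72 ± 0.09, SE; adjusted p = 2.2e-05). MRPS33, at 68, 56.1 and 60.6 CPM in Hyper, fell by 0.72 ± 0.11 (SE) to 26.1 to 44.1 CPM. These 3 members and MRPL13 had no overlap between the sides. Every DOX and MYO library lay below every Hyper library for 25 of the 73 members, as for 11% of all genes. MRPL13 fell by 0.69 ± 0.14 (SE), from 30.8, 30.2 and 31.1 CPM to between 15.8 and 23.7 CPM. The higher members were MRPL12, MRPL28 and MRPL57. Drug and length of follow-up go together in this comparison too, at 3 months in DOX and MYO and 6 months in Hyper.

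MRPL57 was the member that stood apart, with the opposite direction to most others. It lay at 21.9, 22.7, 28.9, 22.2 and 23.8 CPM in DOX, and at 30.8, 28.1, 29, 28.3 and 24.2 CPM in MYO. It lay at 19.4, 17.2 and 17.1 CPM in RemoLV, at 5.29, 5.27 and 10.9 CPM in Hyper and at 10.4, 9.74 and 8.46 CPM in Control. The libraries thus formed a high set of DOX and MYO, a middle set of RemoLV and a low set of Hyper and Control, with no overlap between the sets. It was the one member higher in all of DOX, MYO and RemoLV against Control (log2 fold changes 1.32 ± 0.19, 1.56 ± 0.19 and 0.91 ± 0.21, SE), RemoLV against Hyper and DOX and MYO against Hyper (1.85 ± 0.19, SE; adjusted p = 1e-06), as were 5.14% of all genes. The gene lies on chromosome 11 and is overlapped by SKA3 on the opposite strand, and the reads were counted by strand.

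**Figure D4:**
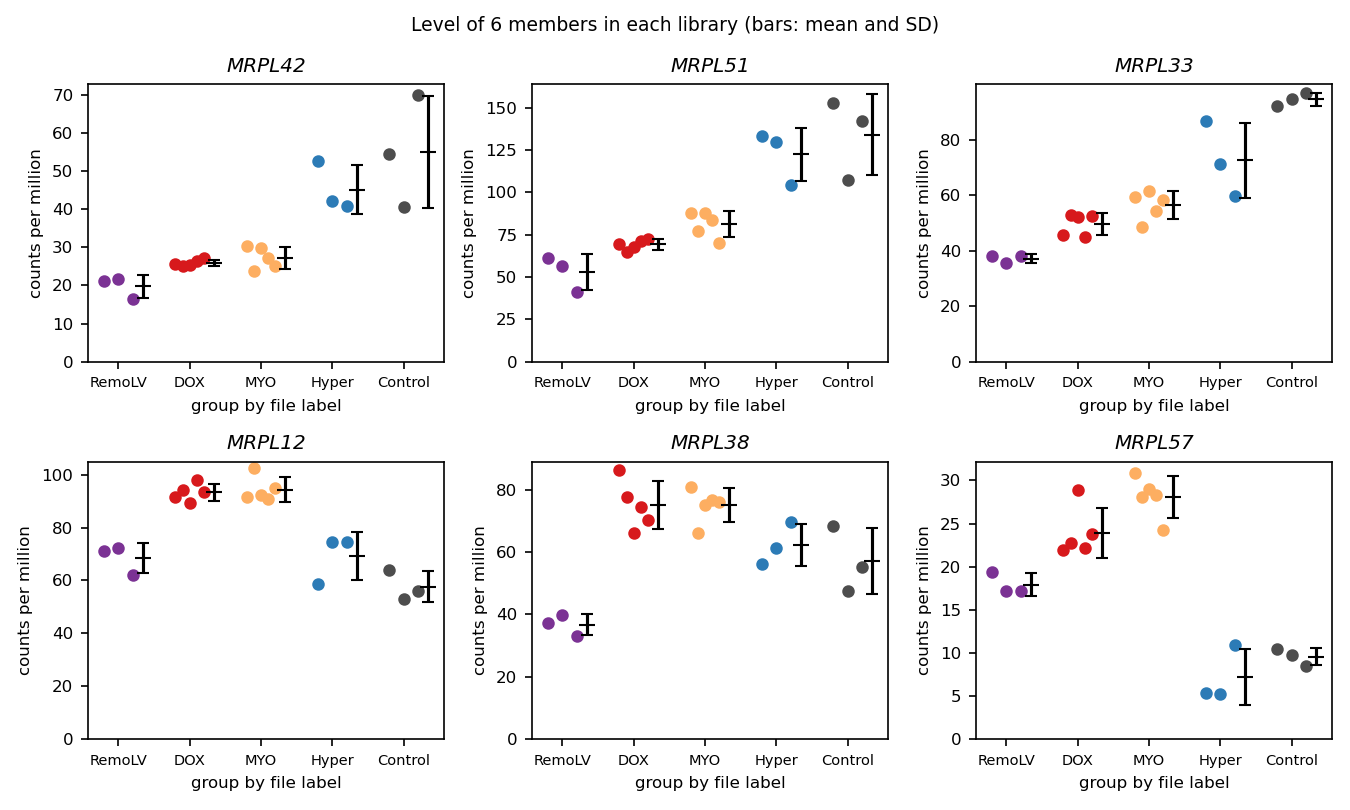
CPM of MRPL42, MRPL51, MRPL33, MRPL12, MRPL38 and MRPL57 in each library (points) with mean and SD by file label. MRPL42, MRPL51 and MRPL33 are lowest in RemoLV and highest in Hyper and Control, MRPL12 is highest in DOX and MYO, MRPL38 is lowest in RemoLV, and MRPL57 is lowest in Hyper and Control.

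Across the comparisons, 22 members were lower in all of DOX, MYO and RemoLV against Control, RemoLV against Hyper, and DOX and MYO against Hyper, by file label, which is 30.1% of them against 7.36% of all genes. With the replicate block in DOX they were 21, without MRPL46 (adjusted p = 0.085), and by table name 0. These comparisons share their reference libraries. The 22 include MRPL3, MRPL13, MRPL19, MRPL24, MRPL33, MRPL42, MRPL51, MRPS18C, MRPS33 and MRPS36. MRPL13 had a log2 fold change of -0.53 ± 0.18 (SE; adjusted p = 0.02) in RemoLV against Control, with adjusted p of 0.072, 0.098 and 0.10 without RemoLV 1, RemoLV 3 or Control 3 and 0.071 with both groups alone, and against Hyper its adjusted p was 0.069 without RemoLV 1 and 0.094 without RemoLV 3. The calls of MRPL3 against Hyper were lost without Hyper 1, at adjusted p of 0.059 in RemoLV and 0.099 in DOX and MYO, and that in RemoLV also with both groups alone (0.059). By file label 5 members passed in no comparison, MRPL11, MRPL36, MRPL37, MRPL49 and MRPS26. By table name MRPL37 passed, and MRPL54 took its place. None of the 73 reached an absolute log2 fold change of 2 with an adjusted p of at most 0.05 in any comparison, the rule by which the study defined a DEG, whereas 215 genes were higher by that rule in DOX and 559 in RemoLV.

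MRPL3, MRPL44, MRPS14 and MRPS22 are genes in which biallelic variants are known to cause cardiomyopathy. MRPL3 and MRPS22 fell in DOX, MYO and RemoLV by file label. MRPL3 lay at 73.8, 80.3 and 93.2 CPM in Control and between 50.6 and 60.1 CPM in the 13 libraries of those groups, without overlap (-0.51 ± 0.11, -0.53 ± 0.11 and -0.57 ± 0.12, SE). MRPS22 lay at 57.2, 43.8 and 67 CPM in Control and between 30.5 and 42.3 CPM in those libraries (-0.56 ± 0.11, -0.51 ± 0.11 and -0.68 ± 0.13, SE). MRPL44 lay at 33.7, 37.6 and 31.2 CPM in Control, at 32.5 to 40 CPM in DOX and 37.3 to 42.6 CPM in MYO, and was lower in RemoLV, at 25.5, 26.7 and 23.4 CPM (-0.44 ± 0.11, SE; adjusted p = 0.0027). MRPS14 was also lower in RemoLV (-0.46 ± 0.15, SE; adjusted p = 0.016), though not without RemoLV 1 (0.073), and had a log2 fold change of -0.30 ± 0.13 (SE; adjusted p = 0.073) in DOX. By table name neither MRPL3 nor MRPS22 passed the test in DOX or MYO, and MRPL44 was higher in both (0.52 ± 0.10 and 0.63 ± 0.10, SE).

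MRPS18A, MRPS18B and MRPS18C are paralogs that occupy different places in the ribosome. MRPS18C lay at 44.9, 37.9 and 49.6 CPM in Control and was lower in DOX (17.6 to 27.6 CPM, median 24.2), MYO (21.9 to 26.7 CPM, median 25.6) and RemoLV (26, 21.9 and 22 CPM), with log2 fold changes of -0.90 ± 0.13, -0.82 ± 0.13 and -0.92 ± 0.15 (SE). MRPS18B, at 55.4, 56.3 and 58.1 CPM in Control, was lower in RemoLV (-0.52 ± 0.10, SE) and in DOX (-0.29 ± 0.09, SE; adjusted p = 0.014, but 0.059 without Control 3 and 0.053 either with the replicate block or with DOX and Control alone). MRPS18A was lower in RemoLV alone (-0.60 ± 0.11, SE), with -0.25 ± 0.10 (SE; adjusted p = 0.052) in DOX and -0.04 ± 0.10 (SE) in MYO. By table name MRPS18A was higher in DOX (0.39 ± 0.11, SE) and MYO (0.53 ± 0.11, SE). MRPS18B was higher in MYO (0.33 ± 0.09, SE), with 0.24 ± 0.09 (SE, adjusted p = 0.052) in DOX. MRPS18C did not pass in either (-0.01 ± 0.13 and 0.14 ± 0.13, SE), so that its decrease in DOX was lost and not turned. The differences between paralogs were not tested.

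Genes that work with the mitochondrial ribosome were read from lists chosen with earlier results of these data known, and their counts stand beside the shares of all genes given above (in DOX, 21.1% lower and 21% higher). Of 13 translation factors, 7 were lower and 0 higher in DOX, MYO had 6 and 0 and RemoLV 9 and 0 against Control, with medians of -0.31, -0.22 and -0.54. By table name 5, 5 and 9 were higher and 0 lower, with medians of 0.29, 0.31 and 0.54. By file label GFM1, the elongation factor that moves the ribosome, fell by 0.47, 0.50 and 0.94 on the log2 scale. MTIF2, which places the initiator tRNA, fell by 0.67, 0.80 and 0.44. TUFM, which delivers aminoacyl-tRNA, fell in RemoLV (-0.47), with -0.14 and -0.11 in the DOX and MYO groups. Of 6 ribosomal proteins with other symbols, such as DAP3 and PTCD3, 2, 1 and 3 were lower and 0 higher, and by table name 2, 4 and 3 were higher and 0 lower. Of 24 assembly factors, 2 were lower and 2 higher in DOX, while MYO had 2 and 4 and RemoLV 5 and 1. Their medians were 0.06, 0.17 and 0.003, and differences between the lists were not tested. By table name 0 were lower and 3 higher in DOX, 0 and 4 in MYO and 1 and 5 in RemoLV. By file label the GTPase genes GTPBP10 (-0.71, -0.65 and -0.47) and MTG2 (0.48, 0.67 and 0.18, the last not passing the test) went in opposite directions, and by table name MTG2 was higher in DOX and MYO (0.33 and 0.46) while GTPBP10 did not pass (-0.27 and -0.15).

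Mitochondrial transcription and RNA genes were mostly lower by file label, with some calls in the other direction. Of 19, 7 were lower and 3 higher in DOX, while MYO had 8 and 3 and RemoLV 11 and 1. Changes below 0 numbered 15, 14 and 14, and the medians were -0.41, -0.24 and -0.51. By table name 0 were lower and 3 higher in DOX, 0 and 5 in MYO and 1 and 11 in RemoLV. The medians were then 0.21, 0.19 and 0.51. By file label POLRMT, the mitochondrial RNA polymerase, rose by 0.59, 0.67 and 0.58 on the log2 scale, while TFAM, which packages mitochondrial DNA and starts its transcription, fell by 0.61, 0.51 and 0.46. SLIRP, which stabilises mitochondrial messages, fell by 1.04, 0.84 and 1.04 and GRSF1, a protein of the mitochondrial RNA granules, by 0.92, 0.86 and 1.34. Of 10 regulators of mitochondrial biogenesis, 4 were lower and 1 higher in each of DOX and MYO, and 4 and 0 in RemoLV. PPARGC1A fell by 0.90, 1.00 and 1.33 and ESRRG by 0.76, 0.73 and 1.78, while PPARGC1B rose in DOX and MYO (1.47 and 1.53) and had 0.57 in RemoLV. NRF1, the factor whose motif is shown above, had log2 fold changes of 0.17, 0.04 and -0.03. GABPA was lower in DOX and MYO (-0.43 and -0.60) with -0.08 in RemoLV, whereas ESRRA was lower in RemoLV (-0.79) with 0.01 and -0.06 in DOX and MYO. By table name 5 of these regulators were higher and 1 lower in DOX, 3 and 1 in MYO and 4 and 0 in RemoLV. PPARGC1B was higher in DOX and MYO by both namings (0.91 and 0.95 by table name) and GABPA lower by both (-0.41 and -0.45).

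Other sets of ribosomal and respiratory genes were counted in the same way, by file label. Of 68 nuclear OXPHOS subunits, 54 were lower in the DOX group, 51 in MYO, 64 in RemoLV and 0 in the Hyper group, with 0 higher in each. Of 67 tested cytosolic ribosomal proteins, 54, 51, 54 and 0 were lower. Of 12 genes of mitochondrial DNA, the messages that these ribosomes read, 10, 10, 8 and 0 were lower, with medians of -1.02, -0.97, -0.76 and -0.35. The libraries are poly(A)-selected. Mitochondrial DNA gave 113294 to 191217 CPM in DOX and MYO, 138818 to 182186 in RemoLV, 189064 to 303694 in Hyper and 207182 to 395111 in Control. Against Hyper, DOX and MYO together had 50 lower OXPHOS subunits, 62 lower cytosolic ribosomal proteins and 9 lower genes of mitochondrial DNA. By table name the OXPHOS subunits had 30 increases and 1 decrease in the DOX group, 29 and 0 in MYO, 64 and 0 in RemoLV and 65 and 0 in Hyper. The cytosolic ribosomal proteins then had 1 increase and 4 decreases in DOX, 4 and 3 in MYO, 54 and 1 in RemoLV and 56 and 1 in Hyper. Genes of mitochondrial DNA had 0 increases in DOX and MYO and 3 and 1 decreases, with medians of -0.63 and -0.32, with 8 increases and 0 decreases in RemoLV and 3 and 1 in Hyper.

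**Figure D5:**
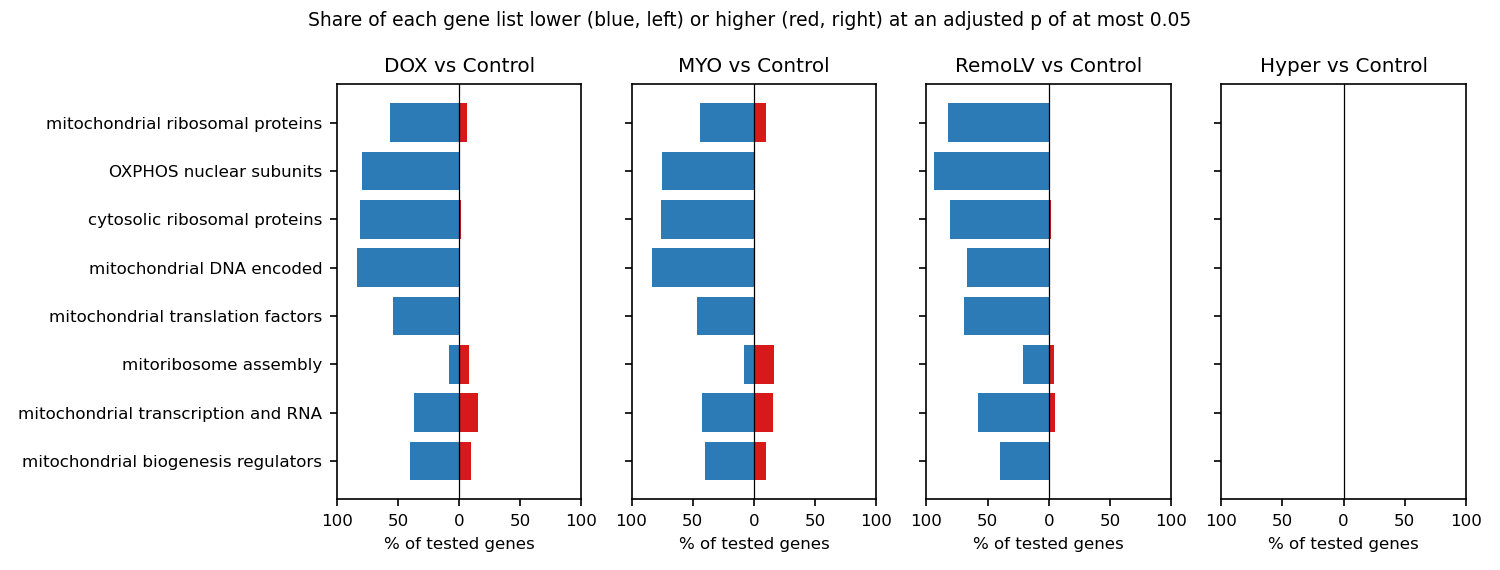
Percentage of the tested genes of each list that were lower (blue, to the left) or higher (red, to the right) at an adjusted p of at most 0.05 in 4 comparisons with Control by file label. Members reach 56.2% lower in DOX and 82.2% in RemoLV, assembly factors have few calls in either direction, and the Hyper panel is empty.

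Message length was read beside these results, by file label. Other genes with a longest RefSeq mRNA of at most 1000 bases (n = 594) had median log2 fold changes of -0.28 (DOX), -0.25 (MYO) and -0.38 (RemoLV), and the 23 members of that length -0.29, -0.20 and -0.62. In DOX 41.8% of those other genes were lower, and 52.2% of the members. Between 1000 and 2000 bases, 33 members had medians of -0.36, -0.28 and -0.57, and 2069 other genes 0.01, 0.04 and -0.06. At or below 1000 bases the medians of members and other genes were thus close in DOX and MYO, whereas in RemoLV 82.6% of those members and 46.8% of the other genes were lower. Between 2000 and 4000 bases, 8 members had medians of -0.25, -0.13 and -0.62, where 4103 other genes had 0.14, 0.15 and 0.10, and 37.5%, 25% and 87.5% of the members were lower. Between 4000 and 8000 bases, 6 members had -0.36, -0.34 and -0.65, where 3863 other genes had 0.06, 0.01 and 0.08. The other genes include the OXPHOS and cytosolic ribosomal protein genes. In DOX and MYO against Hyper, 43.5% of the members of at most 1000 bases were lower, and 43.3% of the other genes. Between 1000 and 2000 bases these shares were 51.5% and 21.1%, and between 2000 and 4000 bases 12.5% and 12.5%.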

How the data were processed

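RNA of LV myocardium was poly(A)-selected, made into stranded libraries and sequenced as read pairs. According to the methods and the submitters' processing notes, the authors aligned reads to Sscrofa11.1 with STAR and counted them by strand per Ensembl gene with HTSeq 0.11.1, and the deposited counts are raw. A second deposited table holds the authors' log2 expression per sample, used here for symbols and for matching its names to count files by Spearman correlation, and the authors' own DESeq2 fold changes and adjusted p-values, not used here.

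Counts were scaled by TMM in edgeR 4.0.16 (R 4.3.3), filtered by filterByExpr, and tested in 1 quasi-likelihood model of 5 groups, with Benjamini-Hochberg adjustment over all tested genes and a threshold of 0.05. CPM are counts per 1000000 on TMM-scaled library sizes. Members and lists were chosen with earlier results of these data known. Members given with values were the 3 largest changes in each direction per comparison with a mean log2 CPM of at least 2, the 4 cardiomyopathy genes, the MRPS18 paralogs, MRPL12 and MRPS36, and the 3 in each direction with the lowest adjusted p in DOX and MYO over both namings. From each list up to 4 called genes per comparison by fold change and fixed regulators were named, and members outside this rule, such as MRPL28, MRPL54 and MRPL11, were named after their values were seen. Replicate numbers were checked by the correlation of same-numbered libraries' deviations from their group means. It was over 0.1 for all 3 pairs of DOX and Control (0.117 to 0.242) and not for all pairs of any other 2 groups (MYO and Control, -0.246 to 0.0545). The replicate block is given for DOX against Control where it changes a call. Its model held all 19 libraries, and the sample titles state no pairing of pigs. Alternatives included DESeq2 1.42.0, other scalings and filters, table names, a replicate block and leaving out each library. On simulated data with 200 changed genes and the DOX and Control group sizes, edgeR recovered 58.8% of those changed by 1 on the log2 scale and 9% of those changed by 0.5, among 13340 genes, with 1 false call. With the RemoLV and Control sizes these were 51% and 4.08% among 13350 genes, with 7 false calls. In the data 42.1% of tested genes were called in DOX and 47.2% in RemoLV against Control. The adjustment for multiple testing therefore differs, and the simulated shares do not give the recovery or the false calls in the data. Each library is 1 pig; replicates were not identical, and precision covers these pigs only. The Ensembl gene of MRPS2 carries no symbol in the authors' table and was not analysed here. Upstream sequences were read from the RefSeq genome of Sscrofa11.1.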

Additional observations from a re-analysis of the deposited data

Results flagged for a closer look

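Of 50 sets of 5 values examined in DOX and MYO (21 named members and 4 summed values in each group), 3 had a library far from the other 4, which is near the 1 in 20 that chance gives. In DOX 3, MRPL57 lay at 28.9 CPM, above the next library at 23.8 CPM, and MRPS14 at 17.9 CPM, above the next at 14.5 CPM. In DOX 5, the sum of the MRPS members was 1123 CPM, above the next library at 1052 CPM. DOX 5 is the library that the authors' table names MYO 1, and it lay within the range of the 5 MYO libraries, 1064 to 1168 CPM. MYO 1, which the table names DOX 5, was the highest of these at 1168 CPM, above all other DOX libraries (1026 to 1052 CPM).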

How the results depend on the processing

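Groups by table name moved the counts most. Members higher and lower became 28 and 0 in DOX, 38 and 0 in MYO, 60 and 1 in RemoLV and 56 and 1 in Hyper against Control, and 0 and 0 in RemoLV against Hyper. In this setting the libraries labelled RemoLV serve as Control and 1 DOX and 1 MYO library change places, and the parts of these 2 changes were not separated. By table name the log2 fold changes of these members turned in DOX: MRPL24 (0.59), MRPL3 (0.071), MRPL33 (0.46), MRPL42 (0.42), MRPL51 (0.44), MRPS18B (0.24), MRPS22 (0.14), MRPS33 (0.033), MRPS36 (0.36). In MYO they turned for MRPL19 (0.086), MRPL24 (0.62), MRPL3 (0.033), MRPL33 (0.57), MRPL42 (0.43), MRPL51 (0.56), MRPS18C (0.14), MRPS22 (0.15), MRPS33 (0.28), MRPS36 (0.36). In RemoLV they turned for MRPL13 (0.53), MRPL19 (0.65), MRPL24 (1.08), MRPL3 (0.57), MRPL33 (1.35), MRPL38 (0.63), MRPL42 (1.47), MRPL44 (0.44), MRPL50 (0.70), MRPL51 (1.33), MRPL57 (-0.91), MRPS14 (0.46), MRPS18A (0.60), MRPS18B (0.52), MRPS18C (0.92), MRPS22 (0.68), MRPS33 (0.81), MRPS36 (1.12). In RemoLV against Hyper they turned for MRPL3 (0.12), MRPL33 (0.38), MRPL42 (0.28), MRPL51 (0.13), MRPS14 (0.018), MRPS18A (0.025), MRPS18C (0.15), MRPS22 (0.31), MRPS36 (0.24). Under the other settings no named member turned in a comparison where it was called by file label.

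With the groups compared alone, 3 members were higher in DOX, and with at least 10 counts in every library 2 were higher in RemoLV, 72 being tested. Leaving out each library in turn gave 3 to 5 higher and 29 to 46 lower members in DOX, 3 to 7 and 22 to 35 in MYO, 1 to 2 and 52 to 60 in RemoLV, 0 to 3 and 0 to 7 in Hyper, 1 to 1 and 50 to 56 in RemoLV against Hyper, and 2 to 4 and 26 to 34 in DOX and MYO against Hyper. DESeq2, RLE factors, TMM without mitochondrial DNA genes and no filter kept every count within 1.5 times. So did 2 settings chosen after seeing the data, without the exchanged DOX and MYO libraries (5 higher and 36 lower in DOX, 6 and 32 in MYO) and without the RemoLV libraries (5 and 38, 7 and 30).

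Apart from DOX with Control, no 2 groups had every same-numbered pair correlated over 0.1, and over all 32 pairs 4 passed, with a median of 0.007. With the replicate block, 4 members were higher and 31 lower in DOX, 7 and 27 in MYO, 1 and 56 in RemoLV, and 3 and 29 in DOX and MYO against Hyper, and 3 of 83 calls of named members were lost. There were 3 libraries in 3 of the groups and 9527710 counts in the shallowest library. MRPL28, near 1 CPM, had the fewest counts of the members, 7 to 40 per library, and its differences are uncertain.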
